A study of Mus musculus with 46 samples.

Results

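Livers taken 16 d after carbon tetrachloride were compared with livers taken at 6 d and 8 d, to describe what still differed late, once the acute injury was days past. The comparison holds the 16 arrays whose labels give one of these times, of 46 arrays in the series: 6 arrays at 16 d, 5 at 8 d and 5 at 6 d. These arrays were chosen by these labels alone and by no measured value. Carbon tetrachloride (CCl4) is a solvent that hepatocytes around the central vein turn into a toxic radical.

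All 16 arrays came from male C57BL/6N mice of 8 to 10 weeks on standard diet. Each group had 1 intraperitoneal dose of 1.6 g/kg CCl4, dissolved in olive oil. RNA from whole liver was hybridised to Affymetrix Mouse Genome 430 2.0 arrays. The 5 control arrays came from untreated mice and are given for reference. They were left out of the main fit, but counted in the choice of probe sets and in the median used as filter limit, both over 46 arrays. Among the alternatives, they entered the fit of all 46 arrays and the filter over 46 arrays. The sources used here give neither the hour of collection nor whether the stated age holds at dosing or at collection. The labels do not say that each array is a mouse of its own, so p-values measure the spread between arrays, which may be technical. A liver array sums all cell types, so fewer cells of a type and less RNA per cell cannot be told apart.

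After a single toxic dose the liver clears dead hepatocytes, the survivors divide, and stellate cells lay down a matrix that is later taken apart. The hepatocyte then returns from growth to its resting work of making plasma proteins, haem, bile and lipids. Growth places demands on ribosome assembly in the nucleolus, on protein folding in the endoplasmic reticulum and on the growth hormone axis, which acts on hepatocytes through STAT5. Many of these liver genes also follow a daily rhythm set by the clock, in which Arntl (Bmal1), an activator, runs opposite to Dbp, an output factor.

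The arrays resembled each other closely. Over the 12708 genes tested, Pearson's r was 0.979 to 0.993 between arrays of 1 group and 0.976 to 0.990 between groups. The liver label fits the defining hepatocyte genes, since Alb, serum albumin, was among the brightest genes and differed little between the times (log2 fold change -0.05 at 16 d, adjusted p = 0.559, limma).

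In every group some arrays stood apart by clock genes. Dbp lay at 9.60 to 10.46 on the log2 scale on 8 arrays and at 5.07 to 7.29 on the other 8. The high side held 6 d arrays 1 to 3, 8 d arrays 1 and 2, and 16 d arrays 1 to 3. Arntl ran the opposite way, at 5.76 to 6.33 where Dbp was high and 6.83 to 8.17 where it was low, and Clock, its partner, at 6.28 to 6.90 and 6.93 to 7.65. Hspa1b, a heat-inducible chaperone with a near-identical copy, Hspa1a, overlapped, at 7.87 to 10.19 and 8.40 to 11.20. The 2 sides were equally represented, 3 and 3 arrays at 16 d and 5 and 5 at 6 d and 8 d together. Within the low side Dbp was 6.61 to 7.29 at 16 d, 5.98 to 6.15 at 6 d and 5.07 to 6.12 at 8 d. Control arrays had Dbp at 8.34 to 10.62 and Arntl at 5.72 to 6.75. What divides the arrays was not tested. The count of calls and most named genes are therefore also given with a 2-level term for the side or within each side, a choice made after seeing the data.

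**Figure D1:**
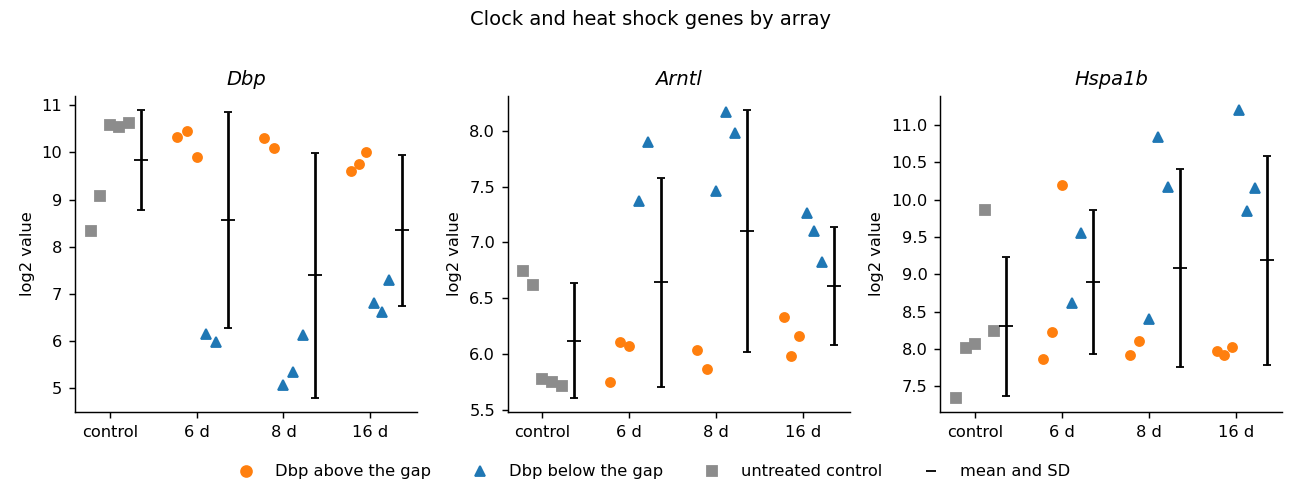
Dbp, Arntl and Hspa1b on each array (log2 value) for untreated control, 6 d, 8 d and 16 d, with circles and triangles for arrays above and below the gap in Dbp and the mean and SD beside each group. Dbp and Arntl divide every group after CCl4 in opposite directions, while the Hspa1b ranges overlap.

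The difference between 16 d and the earlier times was small and mostly downward. With limma and Benjamini-Hochberg adjustment over all genes, 37 of 12708 genes (0.291%) had an adjusted p under 0.05 for 16 d against the mean of 6 d and 8 d; these are called changed below. Of them 33 fell (0.26%) and 4 rose (0.0315%). The fold reached 1.5 for 8 and 2 for 2 of the called genes, Alas1 and Nrep. The 8 were all lower, namely Alas1, Nrep, Pkdcc, Gtpbp4, Enho, Rrn3, Spc25 and 1 gene known only by a model number. Without any test, the 6 arrays at 16 d lay beyond all 10 others for 47 genes (0.37%), below them for 43 (0.338%) and above for 4 (0.0315%), and 17 of the called genes were among these, 15 below and 2 above. At an unadjusted p under 0.05 there were 1441 genes lower (11.3%) and 648 higher (5.1%), and the median over all genes was -0.02.

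**Figure D2:**
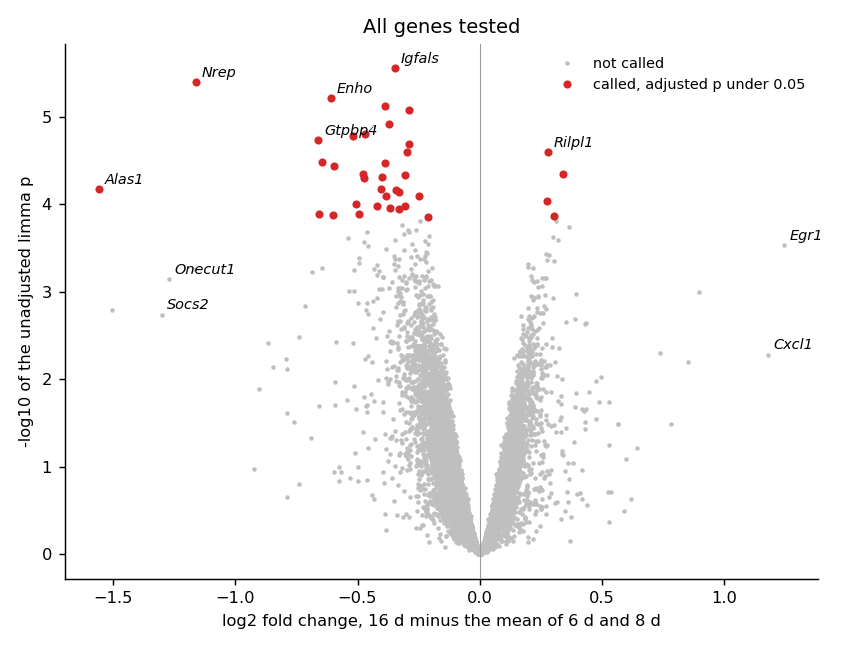
Each point is 1 of the 12708 genes, with the log2 fold change at 16 d against the mean of 6 d and 8 d on the horizontal axis and -log10 of the unadjusted limma p on the vertical axis; red points are the 37 called. The called genes lie mostly to the left, with Alas1 and Nrep farthest out, while Socs2, Onecut1, Egr1 and Cxcl1 have large fold changes and were not called.

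The number of calls changed when single arrays were left out and when the spread of values on the arrays was a covariate. No gene was called without 16 d array 3 or without 16 d array 5 (limma; 1677 and 1616 genes at an unadjusted p under 0.05), 1 without 16 d array 2, 4 without 6 d array 4, 10 without 16 d array 1, 11 without 16 d array 4, 13 without 8 d array 2, 15 without 8 d array 5, 21 without 6 d array 3 or 6 d array 5, and 22 without 8 d array 4. The interquartile range of the log2 values of all probe sets on an array was 2.43 ± 0.03 at 16 d (SD, n = 6) and 2.48 ± 0.03 at 6 d and 8 d (n = 10), a difference of -0.05 (two-sided exact permutation p = 0.003, 0.024 adjusted over 8 array measures), and 2.50 on control arrays. With genes ranked by level into 4 equal bins, the median log2 fold change ran from 0.04 in the dimmest to -0.07 in the brightest, which held 17 of the 37 calls. With the interquartile range as a covariate no gene was called (limma, with 852 at an unadjusted p under 0.05). Because this range itself differs between the groups, that fit cannot separate it from the time after CCl4. With the term for the Dbp side the count was 112, 94 lower and 18 higher, and these included all 37. The 2 sides were equally represented, so this term left each log2 fold change as it was and changed only its standard error. The median standard error was 0.069 with the term and 0.072 without it. Finding all 37 again is therefore no separate support for them. Fitted within 1 side, with 5 residual degrees of freedom, 1 gene was called among arrays with high Dbp (1623 at an unadjusted p under 0.05) and 64 among those with low Dbp (2190). All 37 genes had the same sign on both sides, which their choice by the pooled value makes likely.

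**Figure D3:**
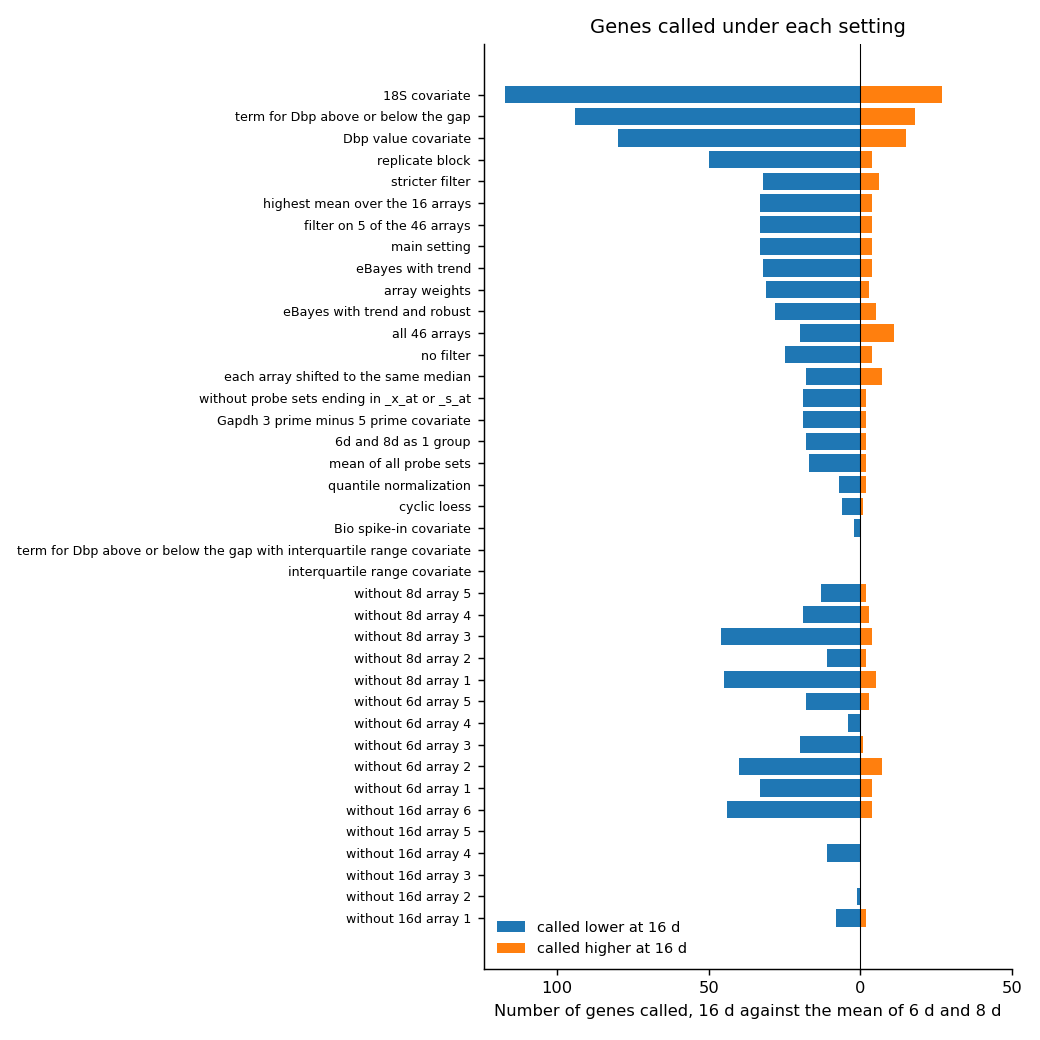
Bars give the number of genes called at 16 d against the mean of 6 d and 8 d under each setting, those lower at 16 d to the left and those higher to the right, with single arrays left out at the bottom. The count of 37 in the main setting goes to 0 without 16 d array 3 or array 5 and with the interquartile range covariate, and to 112 with the term for the Dbp side.

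Haem synthesis gave the largest called change. Alas1, the first and rate-limiting enzyme of haem synthesis, fell 2.94-fold at 16 d (log2 fold change -1.56 ± 0.30 SE, adjusted p = 0.038, limma), and Urod, a later enzyme of the path, fell 1.24-fold (-0.31 ± 0.06, adjusted p = 0.0318). On the log2 scale Alas1 was 11.12, 10.05, 11.65, 10.61 and 10.03 on the 6 d arrays, and 8.37, 9.95, 9.88, 10.62 and 10.59 on the 8 d arrays. At 16 d its lowest, median and highest values were 8.22, 8.71 and 9.34. The groups overlapped only through 8 d array 1, whose 8.37 lay among the 16 d values, and control arrays spanned 7.16 to 11.63, a wider range than the 3 times together. Urod was 9.35, 9.47, 9.29, 9.56 and 9.58 at 6 d and 9.50, 9.59, 9.46, 9.44 and 9.68 at 8 d. At 16 d its lowest, median and highest were 9.09, 9.20 and 9.26, below all 10 earlier arrays, with control arrays at 9.17 to 9.76. Alas1 differed by -1.40 among arrays with high Dbp and -1.54 among those with low Dbp, Urod by -0.25 and -0.38.

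The other haem enzymes did not move alike. Of 7 tested genes of the path, a list added after values were seen, the 2 above were called, against 0.291% of all genes. Those 2 calls were known when the list was made. The median was -0.13 against -0.02 over all genes. Ppox and Cpox, the steps after Urod, had -0.16 and -0.13, and Fech, Uros and Alad had -0.02, 0.01 and 0.05. None of these 5 was called. The summed linear level of the 7 genes was 3345 to 4120 at 16 d and 3992 to 6782 at 6 d and 8 d. A second probe set for Alas1 gave -1.50, while a second for Urod gave -0.08. The Alas1 call ended without any of 16 d arrays 1 to 5, 6 d arrays 1, 3 and 4, and 8 d arrays 2, 4 and 5 (adjusted p up to 0.116), and the Urod call without any of 16 d arrays 1 to 5, 6 d arrays 4 and 5, and 8 d arrays 2 and 5 (up to 0.0983).

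The promoters of 4 called genes with roles in haem synthesis, RNA polymerase I and the growth hormone axis are shown because they hold motifs that were searched. They are the 250 bases before a RefSeq transcription start, mouse build GRCm38.p6, written 5′ to 3′ on the gene's strand, with capitals for a STAT motif (TTCNNNGAA), an E-box (CACGTG), which clock and Myc factors bind, or a forkhead motif (GTAAACA), searched on both strands. Where RefSeq gives several starts, 1 window with a motif is shown. Alas1 is at chr9:106247955-106248204 (minus strand), Urod at chr4:116994414-116994663 (minus), Rrn3 at chr16:13780449-13780698 (plus) and Igfals at chr17:24877981-24878230 (plus).
Alas1: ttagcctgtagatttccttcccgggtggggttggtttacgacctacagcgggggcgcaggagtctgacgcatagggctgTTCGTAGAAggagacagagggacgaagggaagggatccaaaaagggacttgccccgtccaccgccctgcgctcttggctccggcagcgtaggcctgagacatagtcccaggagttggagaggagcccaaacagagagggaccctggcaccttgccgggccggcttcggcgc
Urod: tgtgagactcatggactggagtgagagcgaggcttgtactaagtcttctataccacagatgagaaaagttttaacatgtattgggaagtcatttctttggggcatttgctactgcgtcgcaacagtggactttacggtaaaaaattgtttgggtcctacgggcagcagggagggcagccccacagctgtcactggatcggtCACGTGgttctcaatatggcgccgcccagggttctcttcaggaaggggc
Rrn3: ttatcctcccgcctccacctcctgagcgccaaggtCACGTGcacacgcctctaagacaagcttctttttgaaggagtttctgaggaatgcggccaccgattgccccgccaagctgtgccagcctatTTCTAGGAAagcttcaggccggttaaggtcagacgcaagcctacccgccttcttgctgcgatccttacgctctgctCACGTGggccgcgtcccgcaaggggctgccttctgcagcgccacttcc
Igfals: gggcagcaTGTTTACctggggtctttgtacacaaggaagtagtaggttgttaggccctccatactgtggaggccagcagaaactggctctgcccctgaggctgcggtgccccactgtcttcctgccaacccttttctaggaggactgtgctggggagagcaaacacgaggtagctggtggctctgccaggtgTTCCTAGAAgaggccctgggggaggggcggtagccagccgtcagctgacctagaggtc
The capitals mark a STAT motif in Alas1, an E-box in Urod, 2 E-boxes with a STAT motif between them in Rrn3, and a forkhead and a STAT motif in Igfals.

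Of the 33 genes called lower, 28 had such a window. A gene counts below if any of its windows holds the motif, so genes with several starts have more chances to match. The number of windows per gene was not compared between the called genes and all genes. An E-box stood in 7 of the 28 (25%), namely Cntd1, Ctsf, Ddx42, Hnrnpf, Rrn3, Sar1a and Urod, and in 9.69% of the 10218 tested genes with a window. A STAT motif stood in 7 of 28 as well (Alas1, Ddx42, Igfals, Klhl13, Pprc1, Rrn3 and Timm13) and in 7.15% of all. The forkhead motif was in 1 of 28 and 3% of all, and the cAMP response element (TGACGTCA) in 0 of 28 and 2.74% of all. Of 17 genes of the ribosome assembly list with a window, 1 (5.88%) held an E-box and 1 (5.88%) a STAT motif. The windows of Gtpbp4 and Twistnb, called genes described below, held 0 of the searched motifs. A match describes these letters only, and no binding was measured.

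The next called genes were singled out after their values were seen. Gtpbp4, a GTPase that assembles the large ribosomal subunit, fell 1.58-fold (-0.66 ± 0.11, adjusted p = 0.0261, limma). Rrn3, the factor that brings RNA polymerase I to ribosomal DNA, fell by 0.60 on the log2 scale (SE 0.12, adjusted p = 0.0476). Twistnb, a subunit of that polymerase, fell by 0.33 on the log2 scale (SE 0.07, adjusted p = 0.0448), and Pprc1, a PGC-1-related coactivator, fell by 0.50 (adjusted p = 0.0448). Gtpbp4 was 8.42, 8.50, 8.64, 8.57 and 8.67 at 6 d and 8.04, 8.07, 8.68, 8.47 and 8.63 at 8 d. Its lowest, median and highest values at 16 d were 7.46, 7.75 and 8.31, so that 5 of 6 arrays lay below all earlier ones, and below the control arrays at 8.10 to 8.71. Rrn3 was 6.14, 6.16, 7.05, 6.59 and 6.54 at 6 d, 6.10, 5.95, 5.90, 6.26 and 6.47 at 8 d, and 5.48, 5.77 and 5.90 as lowest, median and highest at 16 d. It touched the earlier arrays only at 8 d array 3, and control arrays had 5.85 to 6.55. Twistnb was 8.04 to 8.39 at 6 d, 7.94 to 8.25 at 8 d and 7.67 to 7.96 at 16 d. Gtpbp4 differed by -0.64 on either side of the Dbp gap and Rrn3 by -0.64 and -0.55. The Gtpbp4 call ended without 16 d arrays 1 to 5 or 6 d array 4 (adjusted p up to 0.0789), and the Rrn3 call held in 3 of the 16 fits with 1 array left out, those without 6 d array 1, 6 d array 2 or 8 d array 3. The Twistnb and Pprc1 calls held in 4 and 5 of those fits.

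Ribosome assembly genes were low at 16 d as a list, though none of its members was called. Of 22 tested members, 11 were lower and 0 higher at an unadjusted p under 0.05, against 11.3% and 5.1% of all genes, and the median was -0.14 against -0.02. Their summed linear level was 4453 to 4879 at 16 d and 4963 to 5487 at 6 d and 8 d, without overlap. The median was -0.15 among arrays with high Dbp and -0.14 among those with low Dbp, and ran from -0.19 to -0.11 over 39 settings. The largest were Rrs1 (-0.69 ± 0.17, adjusted p = 0.0788), Nop58 (-0.59 ± 0.18, 0.131), Nip7 (-0.35 ± 0.11, 0.13) and Ncl, nucleolin (-0.35 ± 0.08, 0.0738), by limma. Rrs1 was 7.96 to 8.82 at 6 d, 7.79 to 8.89 at 8 d and 7.26 to 8.03 at 16 d, with overlap. Ncl and Rrs1 were called with the term for the Dbp side (adjusted p = 0.0416 and 0.0244). Cytosolic ribosomal protein genes, which encode the ribosome itself, had a median of -0.03 over 45 tested, with 0 called and 3 lower at an unadjusted p under 0.05. RNA polymerase I subunits and factors, a list added after values were seen, had 2 of 10 called, against 0.291% of all genes. Those 2 are Rrn3 and Twistnb above, whose calls were known when the list was made, so the count adds no support. The list median was -0.10, against -0.02 over all genes.

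**Figure D4:**
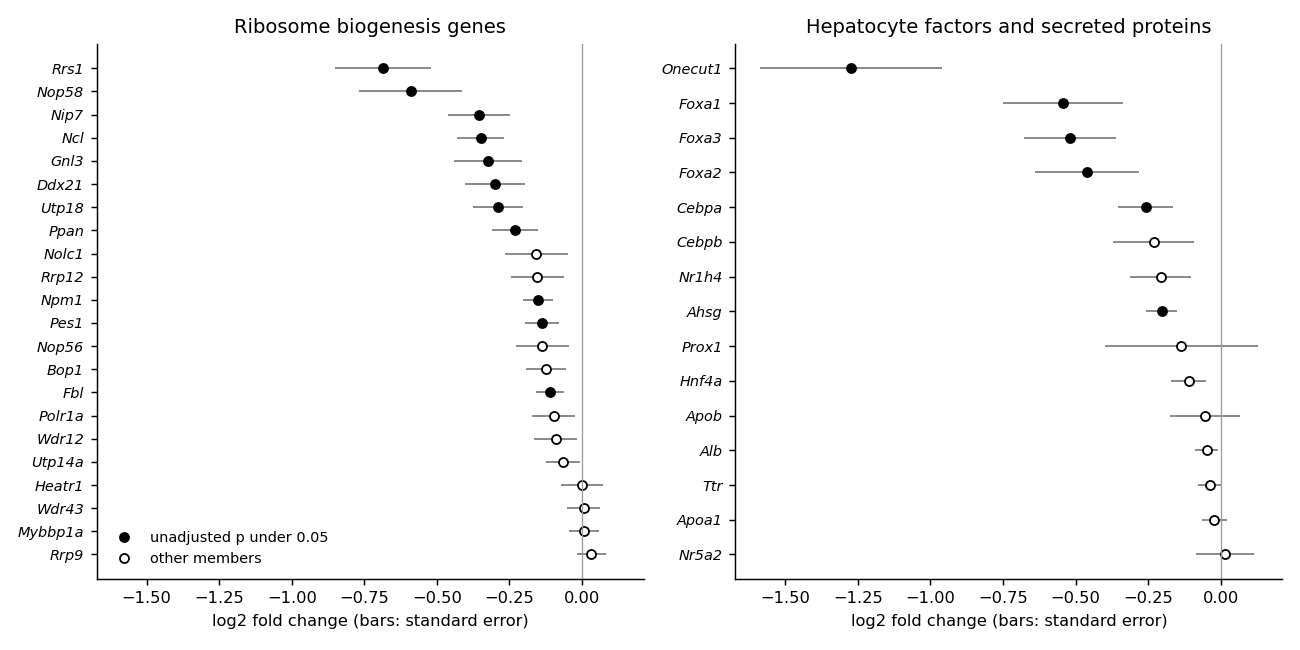
Log2 fold change at 16 d against the mean of 6 d and 8 d with its standard error for each tested member of the ribosome biogenesis list (left) and of the hepatocyte factor list (right); filled points have an unadjusted p under 0.05. Most points lie below 0, led by Rrs1 and Nop58 on the left and Onecut1 on the right, and none was called.

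The 11 genes that the naming rule picks, called and without overlap between 16 d and the earlier arrays, were 10 falls and 1 rise. Nrep, a neuronal regeneration related protein that is also made in liver, fell 2.24-fold (-1.16 ± 0.18, adjusted p = 0.0212, limma). It was 9.25, 9.12, 9.68, 8.85 and 8.07 at 6 d and 8.46, 8.89, 8.63, 8.73 and 8.54 at 8 d. At 16 d the lowest, median and highest were 7.07, 7.69 and 8.03, just under 6 d array 5, and control arrays had 7.95 to 9.97. A second probe set gave -0.89, and the difference was -1.26 where Dbp was high and -0.98 where it was low. The call ended without 16 d array 2, 3 or 5 (adjusted p = 0.056, 0.070 and 0.055).

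Xbp1, a transcription factor of the unfolded protein response, fell by 0.39 on the log2 scale (SE 0.07, adjusted p = 0.0309, limma). It was 11.61, 11.59, 11.88, 11.73 and 11.61 at 6 d, 11.50, 11.52, 11.87, 11.65 and 11.72 at 8 d, and 11.13, 11.28 and 11.43 as lowest, median and highest at 16 d, with control arrays at 11.15 to 11.80. The 16 d arrays lay below the earlier ones, some of them within the control range and the lowest just under it. The difference was -0.35 where Dbp was high and -0.40 where it was low, and 3 other probe sets of Xbp1 gave -0.47, -0.23 and -0.44. Xbp1 was the 1 called member among 20 tested genes of the unfolded protein response, whose median was -0.03, with no other member past an unadjusted p of 0.05. Its call ended without 16 d array 1, 2, 3 or 5, 6 d array 4 or 8 d array 5 (adjusted p up to 0.0807).

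The other 7 falls by the rule, beside Igfals below, were between -0.50 and -0.37. They were Abhd17b, which removes palmitate from proteins (-0.50 ± 0.10), Abhd2, a lipid hydrolase (-0.48 ± 0.09), Ddx42, an RNA helicase (-0.41 ± 0.08), Larp4b, an RNA-binding protein (-0.40 ± 0.08), Frrs1, a ferric reductase (-0.39 ± 0.06), Klhl13, an adaptor of a ubiquitin ligase (-0.38 ± 0.08), and Pgam5, a mitochondrial phosphatase (-0.37 ± 0.06). Their adjusted p ran from 0.0212 for Frrs1 to 0.0476 for Abhd17b (limma). Control ranges held the highest 16 d value for Abhd17b (8.93 in 8.91 to 9.57), Abhd2, Larp4b, Frrs1, Klhl13 and Pgam5, while Ddx42 was 5.86 to 6.22 at 16 d and 6.41 to 6.65 in control. The highest value does not place the other 16 d arrays, which can lie below the control range. On the high and low sides of the Dbp gap these 7 differed by -0.28 (Pgam5) to -0.48 (Abhd17b) and by -0.36 (Klhl13) to -0.63 (Abhd2). Other probe sets differed for Abhd2 (0.08), Frrs1 (0.01) and Abhd17b (0.08, 0.07 and -0.62). All 7 calls ended without 16 d array 2, 3 or 5, and all but that of Frrs1 without 6 d array 4; they held in 4 to 13 of the 16 fits with 1 array left out.

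**Figure D5:**
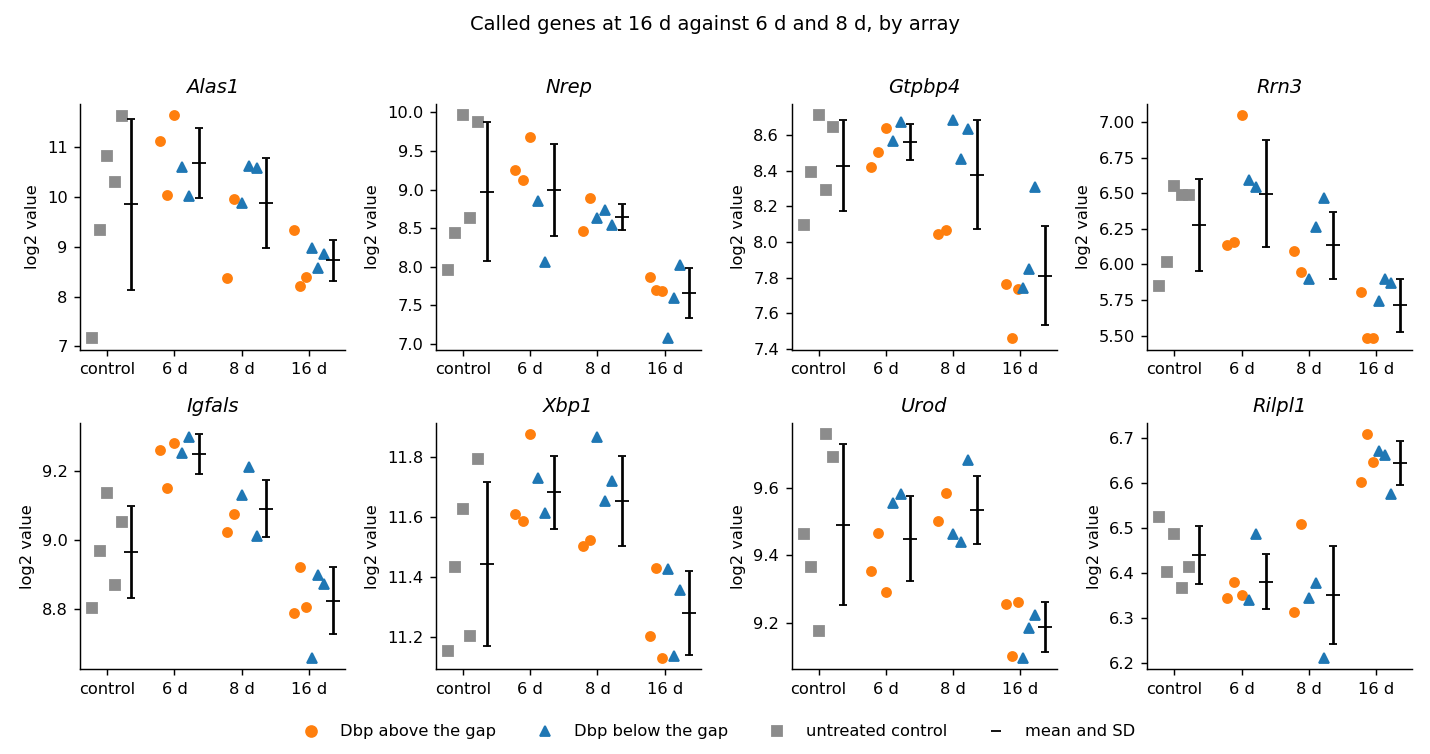
Log2 values on each array for 8 called genes in untreated control, 6 d, 8 d and 16 d, with circles and triangles for arrays above and below the gap in Dbp and the mean and SD beside each group. The 16 d arrays lie below the earlier arrays for Nrep, Igfals, Xbp1 and Urod and above them for Rilpl1, and overlap or touch them for Alas1, Gtpbp4 and Rrn3.

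Of the growth hormone axis 1 gene was called. Igfals, the liver-made subunit that holds IGF in its long-lived plasma complex, fell 1.27-fold (-0.35 ± 0.05, adjusted p = 0.0212, limma). It was 9.26, 9.15, 9.28, 9.25 and 9.30 at 6 d, 9.02, 9.08, 9.13, 9.21 and 9.01 at 8 d, and 8.66, 8.84 and 8.92 as lowest, median and highest at 16 d. The 16 d arrays lay below both times and partly within the control range of 8.80 to 9.14. The difference was -0.30 and -0.39 where Dbp was high and low, and the call ended without 16 d array 3 or 5 (adjusted p = 0.070 and 0.055). Socs2, a STAT5-induced brake on growth hormone signalling, had a larger difference that was not called (-1.30 ± 0.36, adjusted p = 0.104). It was 8.25, 7.54, 9.76, 10.10 and 9.93 at 6 d, 7.67, 7.89, 9.03, 9.27 and 8.73 at 8 d, and 6.79, 7.49 and 8.12 at 16 d. Arrays with low Dbp had the higher values at 6 d and 8 d, the difference was -0.89 and -1.74 on the high and low sides, and Socs2 was called with the term for the side (adjusted p = 0.0248). Other probe sets of Socs2 above the filter gave -1.59 and -0.007, without that term. Cish, a second such brake, had -0.79 ± 0.26 (adjusted p = 0.155), -0.23 on the high and -1.30 on the low side. Socs3 had 0.78 ± 0.34 (adjusted p = 0.257) and Igf1, the hormone itself, -0.12 ± 0.06 (0.34). Over the 14 tested genes of the axis 1 was called, and the median was -0.03, against -0.02 over all genes. At an unadjusted p under 0.05, 4 (28.6%) were lower and 1 (7.1%) higher, against 11.3% and 5.1% of all genes.

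Hepatocyte transcription factors and secreted proteins had low values as a list, with no member called. Of 15 tested genes, 6 (40%) were lower and 0 higher at an unadjusted p under 0.05, against 11.3% and 5.1% of all genes. The median was -0.20, against -0.02 over all genes and -0.07 in the brightest of the 4 level bins. It was the lowest of the 52 lists with at least 3 tested genes. It was -0.16 where Dbp was high and -0.23 where it was low. Onecut1 (HNF6) led, with -1.27 ± 0.31 (adjusted p = 0.0788, limma). It was 8.68, 8.44, 9.34, 8.52 and 8.82 at 6 d, 7.01, 8.43, 8.87, 9.40 and 9.40 at 8 d, and 6.48, 7.55 and 8.24 at 16 d. Only 8 d array 1 fell among the 16 d values, and control arrays had 6.53 to 8.23. Onecut1 was called without that array (-1.47, adjusted p = 0.0136, limma), which removing a value that goes against the fall makes likely. The pioneer factors Foxa1, Foxa2 and Foxa3 had -0.54, -0.46 and -0.52 (adjusted p 0.132 to 0.214), and Cebpa had -0.26. Foxa2 differed by 0.10 on the high and -1.04 on the low Dbp side. Among secreted products, Ahsg, fetuin-A, had -0.20 (adjusted p = 0.0867).

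The remaining called falls covered several roles and were singled out after their values were seen. Enho, which encodes the secreted peptide adropin, fell by 0.61 on the log2 scale (SE 0.10, adjusted p = 0.0212, limma). It was 7.69 to 8.40 at 6 d, 7.32 to 7.78 at 8 d and 6.99 to 7.51 at 16 d, and control arrays had 7.38 to 9.02. Spc25, a kinetochore protein of dividing cells, fell by 0.59 (SE 0.11, adjusted p = 0.0312) from 6.54 to 7.23 at 6 d and 5.92 to 6.52 at 8 d to 5.72 to 6.22, but its other probe set gave -0.02. Pik3r1, the regulatory subunit of PI 3-kinase, fell by 0.47 (SE 0.08, adjusted p = 0.0261), with other probe sets at -0.77, -0.23 and -0.03. Where Dbp was high and low, Enho differed by -0.65 and -0.61, Spc25 by -0.62 and -0.62, and Pik3r1 by -0.40 and -0.52. Hao1, a peroxisomal glycolate oxidase of hepatocytes, fell by 0.33 (SE 0.06, adjusted p = 0.0384), and its 16 d range of 10.55 to 10.79 overlapped 8 d. Dnaja2, an Hsp70 co-chaperone, fell by 0.29 (adjusted p = 0.0212), with 9.92 to 10.09 at 16 d, 10.11 to 10.48 at 6 d and 8 d, and 10.16 to 10.55 in control. Other probe sets of Dnaja2 gave -0.04, -0.24 and -0.44.

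Pkdcc, a secreted kinase (-0.66), Nupl1, a nucleoporin (-0.52), Smim4 (-0.48), Larp4, an RNA-binding protein (-0.42), and Ctsf, a lysosomal protease (-0.37), fell as well. So did Hnrnpf, a splicing protein (-0.34), Klhl42, a further ligase adaptor (-0.31), Cntd1 (-0.30), Nasp, a histone chaperone (-0.29), Sar1a, a GTPase of vesicle export (-0.25), and Timm13, a carrier of mitochondrial import (-0.21). The adjusted p of Timm13, 0.0482, was the highest of the called genes. Other probe sets above the filter were nearer 0 for Pkdcc (-0.09), Nupl1 (-0.04), Ctsf (-0.03), Sar1a (-0.08) and Hnrnpf (-0.09, -0.17 and -0.29). They were -0.16 and -0.44 for Larp4, and above 0 for Cntd1 (0.12 and 0.04). The calls of these 11 genes and of Enho, Spc25, Pik3r1, Hao1 and Dnaja2 ended without 16 d array 2, 3 or 5, and all but that of Enho without 6 d array 4; they held in 1 (Timm13) to 13 (Enho) of the 16 fits with 1 array left out.

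Few genes rose. Rilpl1, which acts at the primary cilium and lysosome, rose 1.21-fold (0.28 ± 0.05, adjusted p = 0.0269, limma), and the other 3 rises carry only clone names. Rilpl1 was 6.34, 6.38, 6.35, 6.34 and 6.49 at 6 d, 6.31, 6.51, 6.34, 6.38 and 6.21 at 8 d, and 6.58, 6.65 and 6.71 at 16 d. The 16 d arrays lay above all earlier ones and above the control arrays at 6.37 to 6.52, by little, a second probe set gave 0.00, and the difference was 0.27 on either side of the Dbp gap. The call ended without 16 d arrays 1 to 5 or 6 d array 4 (adjusted p up to 0.0789). Egr1, an immediate early factor, had a larger difference that was not called (1.25 ± 0.28, adjusted p = 0.066). It was 7.05, 6.59, 6.37, 5.64 and 5.96 at 6 d, 6.92, 6.69, 6.34, 5.95 and 5.74 at 8 d, and 6.85, 7.35 and 8.64 at 16 d, while control arrays had 6.39 to 9.35. The earlier arrays lay partly within the lower part of the control range and partly below it, and at 6 d and 8 d the arrays with low Dbp were the lowest. Egr1 passed the threshold with the term for the side (adjusted p = 0.0218, limma) and without 16 d array 6 (0.0484), 6 d array 1 (0.0474) or 8 d array 1 (0.0497). The named 6 d and 8 d arrays held the highest earlier values, so leaving either out widens the difference. Cxcl1, a neutrophil-attracting chemokine, had 1.18 ± 0.37 (adjusted p = 0.143), with 8.48 to 10.64 at 16 d, 7.55 to 8.19 at 6 d, 7.45 to 10.02 at 8 d and 7.73 to 8.30 in control.

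The times were also compared one by one; these comparisons share the 16 d arrays with each other and with the comparison above. Against 6 d alone, 39 genes were called (0.307%), 34 lower and 5 higher (limma). Against 8 d alone 0 were called (0%), with 1690 genes at an unadjusted p under 0.05 and a smallest adjusted p of 0.0636. Between 8 d and 6 d 4 genes were called (0.0315%). Without 1 array, the count against 6 d fell to 21 (16 d array 2), 20 (16 d array 5), 16 (16 d array 3), 12 (6 d array 4 or 5) or 10 (6 d array 3) and rose to 78 (6 d array 2). The count against 8 d was 1 without 16 d array 4, 3 without 16 d array 6, 2 without 6 d array 5 and 4 without 8 d array 1. The count for 8 d against 6 d was 0 without 16 d array 1 or 3, 6 d array 1, 3 or 5, or 8 d array 2 or 5, 2 without 16 d array 5 or 6, 1 without 8 d array 4 and 22 without 6 d array 2.

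Several genes called against 6 d had an 8 d level between the other times; those named were singled out after their values were seen. Spc25 differed from 6 d by -0.94 ± 0.13 (adjusted p = 0.00545) and from 8 d by -0.25 (0.415). Enho differed by -0.83 ± 0.11 (0.00545) and -0.39 (0.174), and Lifr, the receptor of leukaemia inhibitory factor, by -0.77 ± 0.12 (0.00972) and -0.18 (0.545). Other Lifr probe sets above the filter gave -0.63 and -0.10 against the mean of 6 d and 8 d, where the one used gave -0.48. Slc25a30, a mitochondrial carrier, was 9.25, 8.14, 10.67, 9.54 and 9.38 at 6 d, 7.62, 8.19, 8.04, 9.09 and 8.43 at 8 d, and 7.17, 7.66 and 8.18 at 16 d. It fell against 6 d (-1.73 ± 0.33, adjusted p = 0.029) and had -0.61 against 8 d (0.439). E2f8, a repressor of the cell cycle, was 5.53 to 7.11 at 6 d, 5.30 to 6.17 at 8 d and 5.22 to 5.75 at 16 d (-1.09 ± 0.22 against 6 d, adjusted p = 0.0416). Ddah1, which breaks down asymmetric dimethylarginine, rose against 6 d (0.61 ± 0.09, adjusted p = 0.00669), from 9.62 to 9.96 at 6 d to 10.13 to 10.50 at 16 d, with 9.92 to 10.37 at 8 d. Acpp, an acid phosphatase, rose as well (0.74 ± 0.13, 0.0156), and had 0.04 against 8 d. Against the mean of 6 d and 8 d, another Acpp probe set above the filter gave 0.09, where the one used gave 0.39. Alas1 and Nrep had -1.96 (0.0235) and -1.33 (0.00972) against 6 d and -1.15 (0.189) and -0.99 (0.111) against 8 d. Klhl13 and Hnrnpf had -0.52 and -0.50 against 8 d and -0.24 and -0.18 against 6 d, and were called in neither. All values are from limma.

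The 4 genes called between 8 d and 6 d ran at intermediate levels at 16 d. Slco1b2, an organic anion uptake carrier of hepatocytes, fell from 12.22 to 12.37 at 6 d to 11.62 to 12.08 at 8 d (-0.48 ± 0.08, adjusted p = 0.0472, limma) and was 11.72 to 12.09 at 16 d. Hal, the first enzyme of histidine breakdown, rose from 9.65 to 10.39 to 10.56 to 10.86 (0.64 ± 0.11, adjusted p = 0.0472) and was 10.33 to 10.74 at 16 d. Lsr, a lipoprotein receptor, was 8.99 to 9.18 at 6 d, 9.47 to 9.85 at 8 d and 9.20 to 9.46 at 16 d (0.49 ± 0.08 for 8 d against 6 d, adjusted p = 0.044). Olfm3, a secreted olfactomedin protein, was 4.42 to 5.17, 5.63 to 6.25 and 5.07 to 6.05 (1.12 ± 0.18, adjusted p = 0.044), near the bottom of the scale. For all 4 the 6 d and 8 d arrays did not overlap, which their choice by this same comparison makes likely. The share of all genes without such overlap was not counted.

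Matrix genes had low medians with no call. Of 25 tested collagen and matrix genes, 6 (24%) were lower and 1 (4%) higher at an unadjusted p under 0.05. The shares over all genes were 11.3% and 5.1%, and the list median was -0.16, against -0.02 over all genes. Col3a1, a fibrillar collagen, was 7.31, 7.68, 7.32, 8.54 and 8.12 at 6 d, 7.93, 8.16, 8.34, 7.63 and 9.25 at 8 d, and 6.87, 7.29 and 7.68 at 16 d (-0.74 ± 0.22, adjusted p = 0.125, limma). The 16 d arrays overlapped the lowest 6 d arrays and lay within or just below the control range of 6.91 to 8.24. Sparc, a matricellular protein, had -0.54 ± 0.14 (0.084), Lum, lumican, -0.44 (0.191) and Col4a1, of basement membranes, -0.33 (0.104). Sparc, Col3a1 and Col4a1 passed with the term for the Dbp side (adjusted p = 0.0275, 0.0447 and 0.0454, limma). Other probe sets above the filter gave -0.65 and 0.14 for Sparc and -0.01 for Col4a1, without that term. Col1a1 and Acta2, the myofibroblast genes of the fixed panel, had -0.06 and -0.02. A list of 9 tested myofibroblast genes had a median of -0.01 with none past an unadjusted p of 0.05.

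No marker of Kupffer cells, monocytes, endothelium, neutrophils or B cells was called. Of 16 tested Kupffer cell genes 4 (25%) were lower at an unadjusted p under 0.05, against 11.3% of all genes. The median was -0.17, and it was 0.06 where Dbp was high and -0.45 where Dbp was low. Their summed linear level was 4409 to 6915 at 16 d and 5002 to 9503 before, with Clec4f, their defining lectin, at -0.06. Id3 had -0.79 (adjusted p = 0.146), 0.02 on the high and -1.66 on the low Dbp side. C1qa had -0.30 and Marco -0.57, and none of these genes was called. Another Marco probe set above the filter gave -0.005. On the low Dbp side, 8 d array 3 was high in Marco (9.67, other 8 d arrays 6.12 to 7.09). The same array was high in Id3 (10.15, others 8.8751 to 9.0047). How much this array adds to these falls or to the list median was not tested. Monocyte, sinusoidal endothelial, neutrophil and B cell lists had medians of -0.16, -0.10, 0.08 and 0.07, over 13, 20, 11 and 10 tested genes. The plasma and B cell genes Blk, Mzb1 and Cd79a had 0.27, 0.18 and 0.22, the adjusted p of Blk being 0.0788. Their means over the 16 arrays were 6.43, 6.39 and 5.47, and Cd79a read above the filter limit of 5.56 on only 5 arrays. The dimmest of the 4 level bins had a median of 0.04, and olfactory receptors had 0.05.

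Lipid synthesis lists had higher medians at 16 d against 6 d than against 8 d, and no member was called. The lipogenesis list had a median of 0.15 over 17 tested genes, 0.35 against 6 d and -0.01 against 8 d, and 0.38 for 8 d against 6 d. Cholesterol synthesis had 0.12 over 20 genes, 0.36 against 6 d, -0.05 against 8 d and 0.44 for 8 d against 6 d. Among arrays with high Dbp the cholesterol median was -0.10 and among those with low Dbp 0.39. Fasn, fatty acid synthase, was 8.91, 9.82, 9.07, 8.47 and 8.31 at 6 d, 9.75, 10.06, 9.82, 10.32 and 10.59 at 8 d, and 9.50, 9.77 and 10.68 at 16 d, with control arrays at 9.43 to 10.13. The 6 d arrays were low and those of 8 d and 16 d overlapped (0.35 at 16 d against both, adjusted p = 0.418; 1.19 for 8 d against 6 d, adjusted p = 0.094).

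Of the fixed panel, no clock gene was called. Dbp had 0.37 ± 0.95 (adjusted p = 0.874, limma), Arntl -0.26 ± 0.38 (0.763), Clock -0.12, Per1 -0.03, Per2 0.08, Per3 0.12 and Nr1d1 0.19. The large standard errors come with the 2 levels of Dbp and Arntl within each group. Cyp7a1, which catalyses the limiting step from cholesterol to bile acids, had -0.85 ± 0.28 (adjusted p = 0.153), with 8.74 to 10.02 at 6 d, 8.89 to 9.99 at 8 d, 7.01 to 9.10 at 16 d and 9.21 to 10.77 in control. Cyp2e1, which activates CCl4, and Glul, a pericentral enzyme, had 0.03 and 0.12, and Hspa1b had 0.20 ± 0.55. The acute phase gene Saa1, which has near-identical copies, had 0.59 (adjusted p = 0.639). Hamp, the iron hormone hepcidin, had -0.76 (0.253) and its copy Hamp2 -0.90 (0.183), with another Hamp2 probe set at 0.06. Npas2, Cry1 and Mki67 did not pass the filter on low values.

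Of 54 lists fixed with earlier results known, 52 had at least 3 tested genes, and 3 held any called gene, none of them 3 or more. Their medians ran from -0.20 to 0.15. Olfactory receptors, whose genes read near the floor of the array in liver, had a median of 0.05 over 13 tested genes.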

How the data were processed

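Whole liver RNA was measured on Affymetrix Mouse Genome 430 2.0 arrays from oligo-dT primed cDNA, per the labels' protocols. The authors deposited log2 values. The submitters' processing notes name RMA and the oligo package, version 1.52.0. RMA quantile-normalizes probe intensities between arrays, so a shift shared by most genes is removed before these values. Scan dates and batches are not given in the sources used here. Each of 46 columns matched 1 sample by its label, and 0 were left unused.

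Each of 18193 genes was read from 1 probe set, the one with the highest mean over the 46 arrays among those naming exactly 1 gene. A gene entered the test if at least 5 of the 16 arrays read above 5.56, the median over every value, which left 12708 and removed 5485. The 16 arrays entered 1 limma fit of 3 group means (limma 3.58.1, R 4.3.3, lmFit and eBayes, 13 residual degrees of freedom), with contrasts of 16 d against the mean of 6 d and 8 d, against each, and of 8 d against 6 d. Adjusted p values are Benjamini-Hochberg over all genes tested, and a gene was called under 0.05. The number of arrays limits the precision: the median standard error of the main difference was 0.07 (log2). On simulated data, 200 of 12708 genes were changed in each of 10 draws. The fit recovered 66.2% of 1.25-fold, 94% of 1.5-fold, 98.4% of 2-fold and 99.8% of 4-fold changes, and 5.39% of calls were unchanged genes. Simulated noise was independent between genes, without shared differences between arrays, so these rates need not hold for the real arrays. In the real data 42 genes reached 1.5-fold, and 8 of them were called.

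For array measures a two-sided exact permutation test was used, whose smallest possible p is 0.00025 for 6 arrays against 10. Lists are described by counts and medians, without a test. The comparison, its lists and the panel were chosen with earlier results of these data known. The naming rule took up to 10 rises and 10 falls of greatest size from the called genes with all 16 d arrays beyond the other 10, leaving out clone and model names, the 3 largest called members of lists with at least 3 called, and a fixed panel; other named genes were singled out after their values were seen. Genes with near-identical copies (Hspa1b, Saa1, Hamp and Hamp2), and those read by _x_at or _s_at probe sets, are uncertain. Alternatives were other arrays in the fit, normalizations, filters, probe set rules, variance settings, covariates, a block for the replicate number and leaving out each array; the terms for Dbp, 18S and the Bio spike-ins and a filter over 46 arrays were added after seeing the data. Promoter windows are from RefSeq (GRCm38.p6). Figures were drawn with Python 3.11.15 and matplotlib 3.10.9.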

Additional observations from a re-analysis of the deposited data

Results flagged for a closer look

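Within a group of 5 or 6 arrays, 1 array stood far from the others by Dixon's test for 21 of 306 gene or array measures by group, which is 1.373 in 20, where chance alone gives about 1 in 20. All values are log2.

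Of these, 6 were on 8 d array 3. It was high in Marco, a macrophage scavenger receptor (9.67, others 6.12 to 7.09), in Id3 (10.15, others 8.8751 to 9.0047) and slightly in Alb (14.75, others 14.71 to 14.72). It was low in Ddah1 (9.92, others 10.24 to 10.37), Klhl42 (5.66, others 5.90 to 5.98) and Timm13 (9.65, others 9.77 to 9.81). At 8 d, array 1 was low in Cish (7.30, others 8.47 to 8.89), array 4 low in Hamp (10.64, others 12.39 to 13.02) and array 5 high in Hamp2 (13.57, others 10.77 to 11.58).

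At 16 d, array 1 was high in Cish (8.50, others 7.34 to 7.67) and low in Per1 (6.52, others 6.82 to 6.97), and array 3 was low in Ddx42 (5.86, others 6.10 to 6.22). Array 4 was high in Foxa1 (8.22, others 7.55 to 7.78), Fasn (10.68, others 9.50 to 9.93) and Cd79a (5.92, others 5.48 to 5.60). Array 6 was high in Nop58 (7.47, others 6.37 to 6.61), which was called at 16 d without it (adjusted p = 0.0433, limma). Removing a value that goes against the fall makes such a call likely.

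At 6 d, array 3 was high in Abhd17b (9.87, others 9.07 to 9.30) and low in Hamp2 (9.72, others 10.87 to 11.09), and array 5 was high in Rilpl1 (6.49, others 6.34 to 6.38). Among array measures, 6 d array 4 was low in 18S ribosomal RNA (11.58, others 12.36 to 12.60) and 6 d array 5 high in the Bio hybridisation spike-ins (9.86, others 9.43 to 9.52).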

How the results depend on the processing

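Calls at 16 d against the mean of 6 d and 8 d numbered 37. They numbered 20 with 6 d and 8 d as 1 group, 9 after quantile normalization, 7 after cyclic loess, 19 with the mean of all probe sets, 21 without probe sets ending in _x_at or _s_at, 21 with the Gapdh 3′ minus 5′ covariate and 0 at an adjusted p under 0.01. They numbered 0 with the interquartile range as a covariate, 144 with 18S, 2 with the Bio spike-ins, 95 with the Dbp value, 112 with the Dbp side and 0 with the side and the interquartile range together. All 46 arrays in 1 fit gave 31 calls, 11 higher and 20 lower, 14 of them among the 37, and shifting arrays to 1 median gave 25, 7 higher and 18 lower. Leaving out 1 array gave 0 to 50.

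Calls against 6 d (39) numbered 59 with the stricter filter, 0 with the interquartile range, 9 at an adjusted p under 0.01, 113 with 18S, 168 with the Dbp value, 167 with the side and 6 with side and interquartile range, and 10 to 78 without 1 array. Calls against 8 d (0) numbered 1 with a robust trend, 1 with array weights, 3 with the Dbp value and 9 with the side, and 0 to 4 without 1 array. Calls of 8 d against 6 d (4) numbered 1 with all 46 arrays, 12 at 1 median, 14 after quantile normalization or cyclic loess, 0 without a filter, with the stricter filter, without _x_at and _s_at sets or at 0.01, 1 with the mean of probe sets or the Bio spike-ins, 2 with the filter over 46 arrays, 16 with a robust trend, 9 with array weights, 15 with the interquartile range, 43 and 29 with the Dbp value and side, 37 with side and interquartile range, and 0 to 22 without 1 array.

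Called genes past 1.5-fold (8) numbered 3 with 6 d and 8 d as 1 group, 4 at 1 median, 2 after quantile normalization, 1 after cyclic loess, 4 with the mean of probe sets, 5 with a robust trend, 4 with Gapdh, 0 with the interquartile range (also with the Dbp side) or at 0.01, 1 with the Bio spike-ins and 16 with the Dbp side, and 0 to 12 without 1 array. Cntd1 reversed without _x_at and _s_at sets, to 0.036 (adjusted p = 0.789, limma). The causes of these moves were not tested.

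The replicate numbers of the labels gave no clear pairing of arrays. Same-numbered arrays had r of -0.24 to 0.30 between their deviations from the group means (15 pairs). The median r was 0.08, against -0.05 for other numbers, and 2 of 15 arrays were closest to their own number. The numbers did follow the Dbp side, since arrays 1 and 2 lay above the gap and arrays 4 and 5 below it at every time. With a replicate block the counts were 54 (27 of them among the 37), 47 against 6 d, 7 against 8 d, 3 for 8 d against 6 d and 13 past 1.5-fold.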
